A study of Mus musculus with 12 samples.

Results

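The Cyp4 genes described here are 8 members of the cytochrome P450 family 4: Cyp4a10, Cyp4a14, Cyp4a31 and Cyp4a32 of subfamily 4A, Cyp4f13, Cyp4f14 and Cyp4f15 of subfamily 4F, and Cyp4v3 of subfamily 4V. They were chosen by name, as 8 of the 53465 genes in a table of liver RNA-seq counts, and all 8 were found there and entered the tests. The choice was made with earlier results of these data known. The livers came from C57BL/6N mice. Each of 3 groups held 4 livers from different animals: the young group was 3 months old, the middle-aged group 12 months and the aged group 18 months. According to the study's methods the mice were healthy males with free access to a standard diet, and no genotype or treatment set the ages apart. Those methods describe the RNA preparation for young and old livers only, and the study took its 3-age liver RNA-seq from public consortium data, so the preparation of these 12 livers is uncertain.

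Enzymes of the Cyp4 family hydroxylate the terminal (omega) carbon of fatty acids and of related lipids. The alcohol is then oxidised by alcohol and aldehyde dehydrogenases to a dicarboxylic acid, which peroxisomes shorten; in liver this route takes up fatty acids that mitochondria do not burn. The 4A genes are classical targets of PPARα, the fatty acid-activated nuclear receptor that drives the hepatic response to fasting and to peroxisome proliferators. The 4F enzymes act on leukotrienes, other eicosanoids and the side chains of vitamins E and K, and Cyp4v3 is the mouse counterpart of human CYP4V2, the gene of a crystalline retinal dystrophy.

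The 4A members lie side by side on chromosome 4 (GRCm38): Cyp4a14 (ENSMUSG00000028715) at chr4:115486200-115496142 on the minus strand, then Cyp4a10 (ENSMUSG00000066072) at chr4:115518264-115533649, Cyp4a31 (ENSMUSG00000028712) at chr4:115563649-115579015 and Cyp4a32 (ENSMUSG00000063929) at chr4:115600969-115621602 on the plus strand. The 4F members lie on chromosome 17: Cyp4f15 (ENSMUSG00000073424) at chr17:32685627-32703352 on the plus strand, and Cyp4f14 (ENSMUSG00000024292) at chr17:32905070-32917342 and Cyp4f13 (ENSMUSG00000024055) at chr17:32924688-32947402 on the minus strand. Cyp4v3 (ENSMUSG00000079057) lies at chr8:45304944-45333216 on the minus strand. How far the members can be told apart by reads depends on their sequence. The 30 coding bases around the codon of the heme-binding cysteine, the signature of every P450, are shown because they contain the most conserved stretch of these enzymes; capitals mark bases that differ from Cyp4a10, and each run is written 5′ to 3′ on the coding strand from GENCODE M21 transcripts.
Cyp4a10: ttctcaggaggagccaggaactgcattggg
Cyp4a31: ttctcaggaggagccaggaactgcattggg
Cyp4a32: ttctcaggaggagccaggaactgcattggg
Cyp4a14: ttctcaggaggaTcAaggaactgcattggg
Cyp4f13: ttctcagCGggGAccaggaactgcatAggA
Cyp4f14: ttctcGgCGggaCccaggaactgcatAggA
Cyp4f15: ttctcCgCTggGCccaggaactgcatAggA
Cyp4v3: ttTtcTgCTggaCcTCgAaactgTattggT

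In Cyp4a10 the stretch joins exons 11 and 12 of 13 and spans chr4:115529502-115532543 with the intron between them. It was the same in Cyp4a10, Cyp4a31 and Cyp4a32, and differed from Cyp4a10 at 2 bases in Cyp4a14, 6 in Cyp4f13, 6 in Cyp4f14, 7 in Cyp4f15 and 10 in Cyp4v3. Over the whole coding sequence Cyp4a10 matched Cyp4a32 at 97.2% and Cyp4a31 at 96.6% of aligned bases, but Cyp4a14 at 76.8%. Of all 50-base windows along their transcripts, 29.8% in Cyp4a10, 20.6% in Cyp4a31 and 43.8% in Cyp4a32 occurred word for word in another gene, against 0.235% in Cyp4a14 and between 1.11 and 2.39% in the 4F genes. Cyp4v3 shared 7.02% of its windows, with the overlapping gene Gm45753 on the same strand. Single values of Cyp4a10, Cyp4a31 and Cyp4a32 are therefore uncertain where reads could fall to a sister gene, since how such reads were counted is not given in the sources used here. Cyp4a14 is nearly free of this limit.

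Counts assigned to genes ranged from 8124312 to 10527159 per liver, and all 6 hepatocyte markers (Alb, Apoa1, Ttr, Cyp2e1, Cps1 and Tat) were present in the table with none called between ages. Between aged and young livers 3 of them had an unadjusted DESeq2 p under 0.05. Their log2 fold changes were 0.31 for Alb, 0.27 for Cyp2e1 and -0.54 for Tat. The composition of the synthetic spike-in RNA split the livers into set A (replicates 1 and 2 of every age) and set B (replicates 3 and 4), and age differences are given within each set where they matter. Young replicate 2 stood apart with 19.2% of gene counts from mitochondrially encoded genes (from 5.48 to 10.7% elsewhere). Its share of all counts from spike-ins was 10.6% (from 1.59 to 6.23% elsewhere). Young replicate 3 and middle-aged replicate 1 stood apart with 22284 and 19982 genes detected (from 16361 to 17563 elsewhere). In bulk liver, fewer hepatocytes and less RNA per hepatocyte cannot be told apart. Normalised read counts below are counts divided by the DESeq2 size factor of each liver.

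Levels of different genes were compared as normalised counts per kilobase of annotated exon. Cyp4f14 had the highest mean level over the 12 livers, 1225 per kb, followed by Cyp4v3 at 726.5, Cyp4f15 at 411.7, Cyp4a10 at 398.1, Cyp4a14 at 172.7, Cyp4f13 at 114.2, Cyp4a32 at 77.8 and Cyp4a31 at 4.67. Among themselves the first 3 kept their order in all 12 livers, as Cyp4f14 exceeded Cyp4v3 and Cyp4v3 exceeded Cyp4f15 in each. They did not keep the top places, since Cyp4f14 exceeded Cyp4a10 in only 2 of the 4 aged livers. The places of Cyp4a10 and Cyp4a14 did not hold: Cyp4f15 exceeded Cyp4a10 in 9 of 12 livers, and Cyp4a14 exceeded Cyp4f13 in 3 of 12 although its mean was higher.

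The order differed between ages in the places of these 2 genes. In young livers Cyp4a10 had a level of 85.7 ± 39.4 per kb (SD, n = 4), rank 5 among the 8 and overlapping its neighbours Cyp4f13 (113 ± 7.5) and Cyp4a32 (66.8 ± 18.2), and Cyp4a14, at 6.39 ± 5.16, overlapped Cyp4a31, the lowest, at 4.80 ± 3.26. In aged livers Cyp4a10 had the second highest mean, 833 ± 686 per kb, and Cyp4a14 the fourth, 460 ± 614, but their ranges overlapped those of Cyp4f14, Cyp4v3 and Cyp4f15. The 4A members together made up from 3.25 to 8.12% of the summed level of the 8 genes in young livers and from 7.36 to 19.5% in middle-aged livers. In aged replicates 1 to 4 the share was 8.47, 15.4, 59.3 and 44.0%. The high shares of aged livers thus came from replicates 3 and 4, the livers of set B. These shares leave out Cyp4a12a and Cyp4a12b, 4A genes outside the 8. Their mean levels were 1328 and 502 per kb in young livers and 643 and 197 in aged livers.

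**Figure D1:**
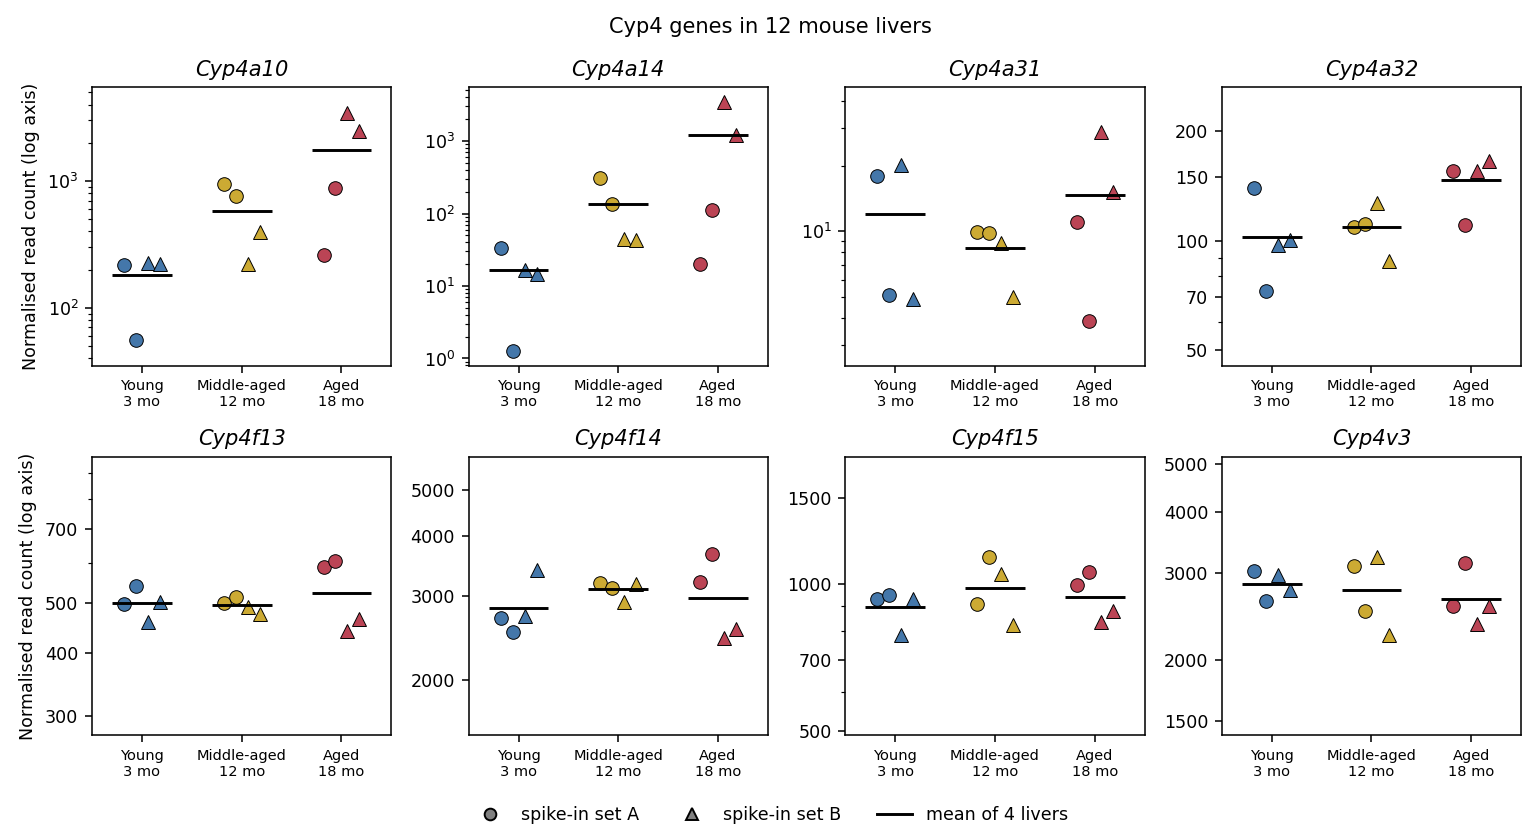
Normalised read count of each Cyp4 gene in the 12 livers (log axes, 1 point per liver, circles for spike-in set A and triangles for set B, bars for the mean of 4 livers) at 3, 12 and 18 months (mo). Cyp4a10 and Cyp4a14 spread over the widest range, with aged replicates 3 and 4 at 1204 to 3452 normalised counts for both genes, while Cyp4f13, Cyp4f14, Cyp4f15 and Cyp4v3 stayed within 1.5-fold at each age.

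Cyp4a14 was at 34.0, 1.27, 16.6 and 14.6 normalised counts in young replicates 1 to 4, at 313.8, 135.6, 44.2 and 43.1 in the middle-aged livers, and at 20.1, 112.7, 3452 and 1204 in the aged ones. All 4 middle-aged livers lay above every young liver, whereas aged replicate 1 lay inside the young range. Cyp4a14, a 4A hydroxylase induced by PPARα ligands, was the member with the largest fold difference between age means and the widest fold spread: within the aged group its highest liver exceeded the lowest 172-fold.

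Cyp4a10, its neighbour and an inducible lauric acid hydroxylase of mouse liver, was at 217.6, 56.0, 227.5 and 221.6 normalised counts in its young livers, at 940.3, 767.6, 221.6 and 396.9 in middle-aged livers, and at 261.9, 880.4, 3422 and 2462 in aged livers. Every aged liver lay above every young one, with aged replicate 1 only just so, and middle-aged replicate 3 lay within the young range. In both genes replicates 1 and 2 were the higher middle-aged livers and replicates 3 and 4 the higher aged livers.

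Cyp4a32, a close copy of Cyp4a10, was at 140.1, 72.6, 97.2 and 100.6 normalised counts in the young livers, 109.2, 111.3, 127.2 and 88.2 in the middle-aged livers and 155.6, 110.8, 155.6 and 165.4 in the aged livers. Aged replicates 1, 3 and 4 lay above every young and middle-aged liver, and aged replicate 2 lay among them. Cyp4a31 was near the limit of detection, with 3.85 to 28.8 normalised counts per liver, and its ages overlapped.

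The 4F genes and Cyp4v3 varied little. Cyp4f14, a leukotriene B4 and vitamin E omega-hydroxylase, was the member with the highest mean level over all livers. It was at 2690, 2514, 2722 and 3400 normalised counts in the young livers, 3185, 3115, 2913 and 3174 in the middle-aged livers and 3197, 3664, 2447 and 2549 in the aged livers. Its aged livers fell to either side of the middle-aged ones, replicates 1 and 2 above and replicates 3 and 4 below. Cyp4f13 had a mean of 500.7 ± 33.3 in the young group, then 495.7 ± 15.5 and 524.8 ± 84.2 in the older groups, with aged replicates 1 and 2 at 588.1 and 605.9 and replicates 3 and 4 at 440.4 and 464.8 (SD, n = 4). Cyp4f15 had 898.3 ± 76.4, 978.9 ± 139 and 941.6 ± 103, and Cyp4v3, which acts on medium-chain fatty acids, 2857 ± 184, 2777 ± 474 and 2666 ± 333 at the same ages (SD, n = 4). The coefficient of variation within an age was between 3.13 and 19.3% for these 4 genes, against 46.0 to 82.3% for Cyp4a10 and 80.8 to 133% for Cyp4a14.

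Aged livers were set against young ones to ask which members differed by 18 months. DESeq2 called 2 of the 8 members at an adjusted p under 0.05, both higher in aged livers, where 1.87% of all 13527 tested genes passed in that direction and 3.58% in either. Cyp4a14 rose by 6.17 on the log2 scale (SE 1.26, 95% interval 3.69 to 8.64, DESeq2 adjusted p = 0.00022), with 3 of 4 aged livers above every young one. Cyp4a10 rose by 3.28 (SE 0.75, 95% interval 1.81 to 4.76, DESeq2 adjusted p = 0.00155), and was the only member whose young and aged livers did not overlap, a pattern seen in 7.53% of tested genes. The fitted rise of Cyp4a14 is wide on the linear scale, from 12.9-fold to 400-fold, and young replicate 2 held a single count. It was 4.74 without aged replicate 3 and 6.78 without young replicate 1, past the threshold in both cases (DESeq2 adjusted p = 0.0198 and 0.000421).

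The other 6 members did not pass the test. Cyp4a32 had a log2 fold change of 0.51 (95% interval 0.10 to 0.92, DESeq2 adjusted p = 0.167), and without young replicate 1 it passed (0.70, DESeq2 adjusted p = 0.0327). Cyp4a31 had 0.30, with an interval from -0.95 to 1.55, or from 0.518-fold to 2.92-fold, so that a change within that range was not excluded. Cyp4f13, Cyp4f14 and Cyp4f15 each had 0.07 and Cyp4v3 had -0.10, and the intervals of these 4 genes lay between -0.35 and 0.33.

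**Figure D2:**
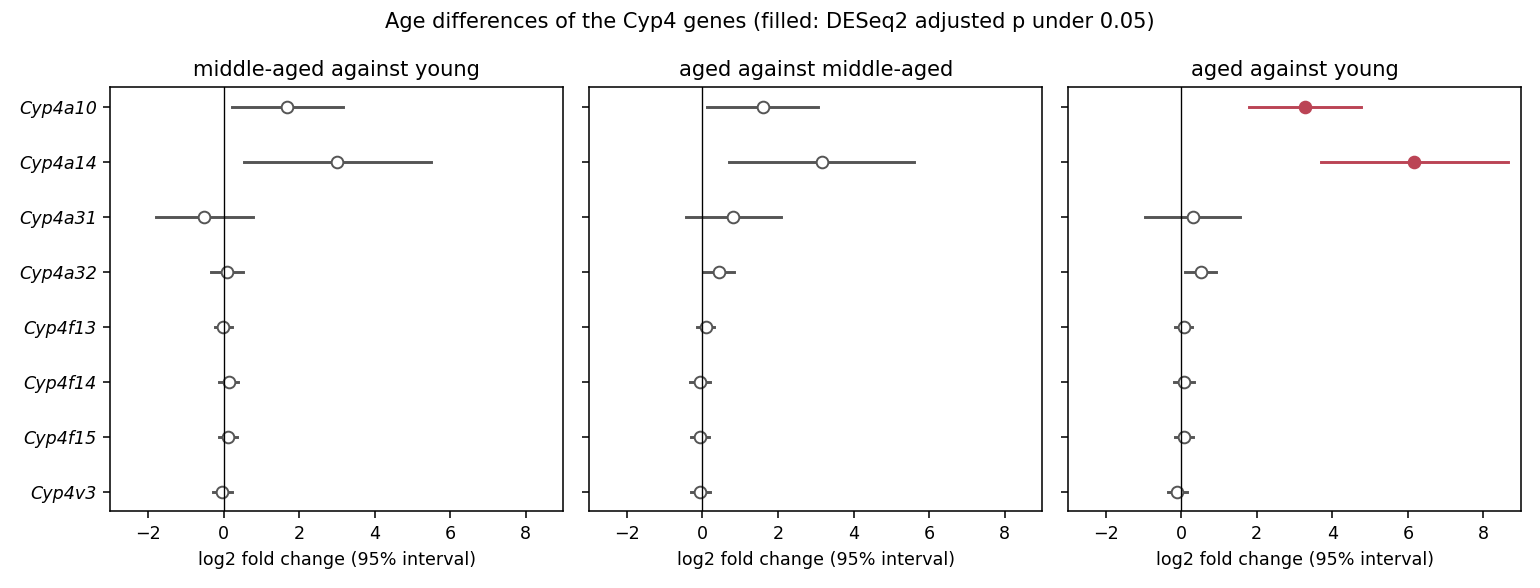
Log2 fold change of each Cyp4 gene in the 3 comparisons of ages (points) with 95% intervals (lines), from the DESeq2 fit of 12 livers; filled points passed an adjusted p of 0.05. Cyp4a10 and Cyp4a14 passed between aged and young livers at 3.28 and 6.17, and no gene passed in the other comparisons.

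The rise of both genes was uneven between the spike-in sets. Within set B, 2 aged against 2 young livers, the log2 fold change was 3.71 (SE 0.22) for Cyp4a10 and 7.22 (SE 0.68) for Cyp4a14. The DESeq2 adjusted p was 3.41e-58 and 4.54e-23. With 2 livers per age, these SEs and p-values rest on a poorly estimated spread between animals. In the fit of all livers the SEs were 0.75 for Cyp4a10 and 1.26 for Cyp4a14. Within set A the log2 fold changes were 2.07 (SE 0.95) and 1.91 (SE 1.65) in the same order. Neither passed (DESeq2 adjusted p = 0.596 and 0.9999). The difference between the sets itself was 5.32 (SE 1.75) for Cyp4a14 and 1.65 (SE 1.02) for Cyp4a10, and did not pass (DESeq2 interaction test, adjusted p = 0.161 and 0.886). With a liver left out in turn it ranged from 1.51 to 7.04 for Cyp4a14 and from 0.36 to 2.77 for Cyp4a10. The Cyp4a14 difference passed without young replicate 2 (6.25, DESeq2 adjusted p = 0.00295) and without aged replicate 2 (7.04, DESeq2 adjusted p = 0.0127), and was 1.51 without young replicate 1 (DESeq2 adjusted p = 0.9994). A set differs from the other by its animals as well as by its spike-in, which cannot be told apart. Under limma-voom, which weights livers by quality, Cyp4a10 passed (adjusted p = 0.0229) and Cyp4a14 did not (adjusted p = 0.243).

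Cyp4f14 was the 1 member whose age difference was called as unlike between the sets, where 0.732% of 10799 tested genes were. Its log2 fold change of aged over young was 0.40 (SE 0.17) within set A and -0.30 (SE 0.13) within set B, a difference of -0.69 (SE 0.19, DESeq2 interaction test, adjusted p = 0.048). Neither set passed on its own (DESeq2 adjusted p = 0.448 and 0.271). The call lay close to the threshold and was lost under edgeR, with TMM factors, with a low-count filter, without independent filtering, and on leaving out any of 10 livers, standing only without young replicate 3 or aged replicate 1. With each of the 12 livers left out in turn the difference was between -0.84 and -0.52.

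**Figure D3:**
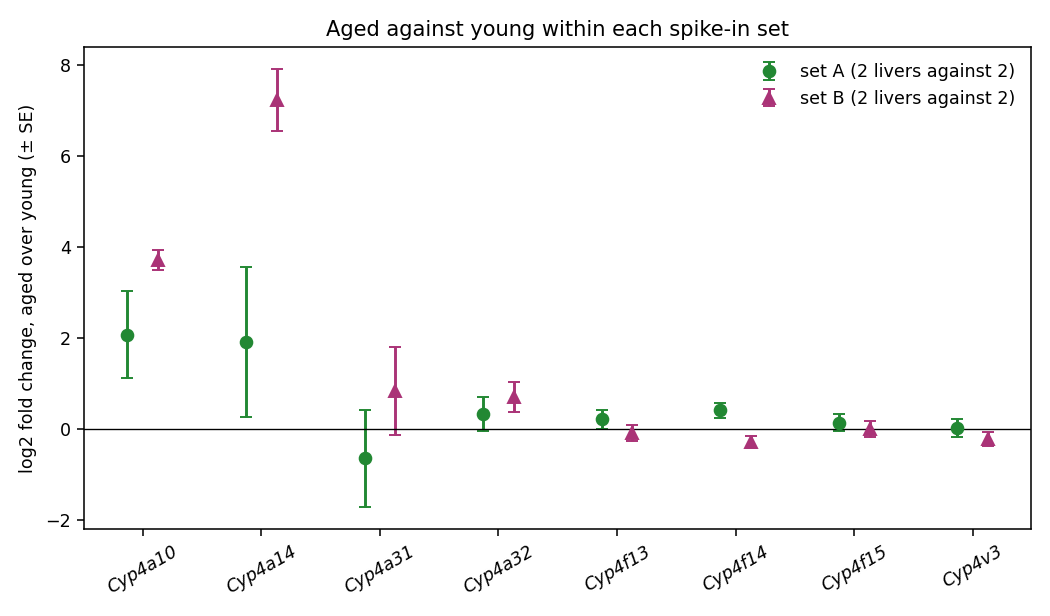
Log2 fold change of aged over young livers (± SE, 2 livers against 2) for each Cyp4 gene within spike-in set A (circles) and set B (triangles). Cyp4a14 was at 1.91 in set A and 7.22 in set B, and Cyp4f14 lay above 0 in set A (0.40) and below 0 in set B (-0.30).

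The next comparison set middle-aged beside young livers. None of the 7 members tested passed, where 6.41% of 11333 tested genes did; Cyp4a31 was removed by DESeq2's filter on low means. Cyp4a14 had the largest difference (log2 3.01 ± 1.26 SE, DESeq2 adjusted p = 0.131) and no overlap between the groups, a pattern seen in 16% of tested genes. Cyp4a10 had 1.69 (SE 0.75, DESeq2 adjusted p = 0.159). Both had an unadjusted DESeq2 p under 0.05 (0.0173 and 0.0252), and both passed when only the 8 livers of these ages were fitted (DESeq2 adjusted p = 0.0237 and 0.0487); edgeR called 0 members. The 5 other members tested lay between -0.04 and 0.13.

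Between aged and middle-aged livers none of the 7 members tested passed, where 1.14% of 10236 tested genes did, and edgeR called 0 members. The log2 fold changes were 3.16 ± 1.25 for Cyp4a14, 1.59 ± 0.75 for Cyp4a10 and 0.43 ± 0.21 for Cyp4a32 (± SE; DESeq2 adjusted p = 0.273, 0.427 and 0.453), all 3 with an unadjusted p under 0.05 (0.0116, 0.0337 and 0.0387). The sets differed in sign here, a difference that was not tested. Within set A Cyp4a14 and Cyp4a10 were lower in aged livers, by a log2 fold change of -1.75 and -0.57, and within set B higher, by 5.74 and 3.26, where both passed. With the 3 ages tested together, DESeq2's likelihood ratio test called Cyp4a14 (adjusted p = 0.00368) and Cyp4a10 (adjusted p = 0.0065) among the 8, where 6.96% of 12430 tested genes were called. Without aged replicate 3, the liver with the highest level of both, that test called 0 members.

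Cyp4a10 and Cyp4a14 varied together from liver to liver. Over the 12 livers, Pearson's r of log2(normalised count + 1) was 0.978 (permutation p = 1e-05, the smallest that 100000 resamples can give, and 0.00028 after Benjamini-Hochberg adjustment over 28 member pairs) and Spearman's rho 0.895 (permutation p = 0.00017). Without aged replicates 3 and 4, the livers farthest from the median of Cyp4a10, r was 0.954 (permutation p = 0.00015). Taken as deviations from the mean of each age, so that age itself plays no part, r was 0.961 (exact permutation within ages, p = 0.000796). It was 0.974 among the 6 livers of set A and 0.982 among the 6 of set B (exact permutation tests, p = 0.00833 and 0.0125). Cyp4a14 matched each of the 3 other 4A members at 76.2 to 76.8% of aligned coding bases, and 0.235% of its 50-base windows occurred in another gene.

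**Figure D4:**
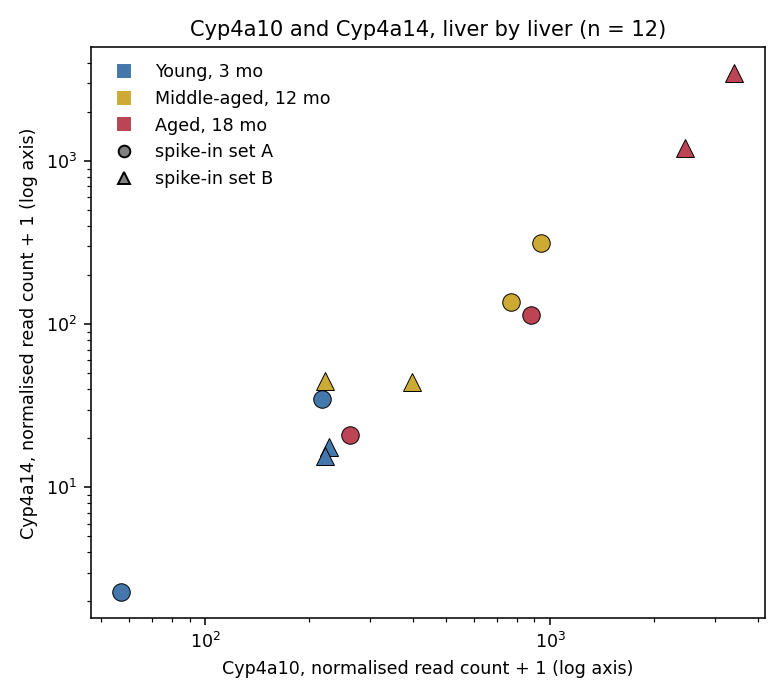
Normalised read count + 1 of Cyp4a14 against Cyp4a10 in each of the 12 livers (both axes logarithmic), coloured by age with circles for set A and triangles for set B. The livers of all ages follow a common line (r = 0.978), from young replicate 2 at the low end to aged replicates 3 and 4 at the high end. Aged replicate 1 lies near the young livers, just above them for Cyp4a10 and within their range for Cyp4a14.

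No other member pair passed by Pearson's r after adjustment over the 28 pairs, and 1 other, Cyp4f13 with Cyp4f15, passed by Spearman's rho (0.797, permutation p = 0.00266, adjusted p = 0.0372). The near-identical copies of Cyp4a10 followed it less closely in value, with r of 0.611 for Cyp4a32 and 0.413 for Cyp4a31 (permutation p = 0.0345 and 0.182, adjusted p = 0.127 and 0.392), and without aged replicates 3 and 4 these were 0.315 and -0.04. Among the 4F genes, Cyp4f13 and Cyp4f15 had the highest r, 0.670 (permutation p = 0.0173, adjusted p = 0.127), with 0.346 in set A and 0.669 in set B (exact permutation tests, p = 0.492 and 0.14). As deviations from age means it was 0.733 (exact permutation within ages, p = 0.00188), and this pair and Cyp4a10 with Cyp4a14 were the 2 that passed there after adjustment. Cyp4a31 and Cyp4f14 had the lowest r, -0.674 (permutation p = 0.0174, adjusted p = 0.127).

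Among 8887 genes whose mean normalised count was 50 or more, those most like Cyp4a10 across the 12 livers were Cyp4a14 (r = 0.978), Paqr9 (0.957), Cryz (0.951), Vnn1 (0.945) and Alb (0.944). Vnn1, a pantetheinase gene induced by PPARα, went from a mean of 47.1 normalised counts in young to 104 in middle-aged and 305 in aged livers. The genes most like Cyp4f14 were Map3k21 (0.892), Rab11fip3 (0.857), Csk (0.854), Tdrd7 (0.853) and Plxnb2 (0.848). Those most like Cyp4v3 were Etnppl (0.927), a phospho-lyase of phosphoethanolamine, then Tvp23b (0.868), Serpina1c (0.831), Slc22a28 (0.83) and Tyk2 (0.827). These are the highest of many values over 12 livers that share their libraries, and are given as a description.

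Of 12 other Cyp4 genes listed, 6 were tested between aged and young livers. DESeq2 called 2 of them, both lower in aged livers, where 3.58% of all tested genes passed in either direction. The median log2 fold change of the 6 tested genes was -0.54 against 0.00 over all tested genes. Cyp4a12a, the male-predominant 4A enzyme that makes the arachidonic acid product 20-HETE, was at 3530, 2682, 3423 and 3226 normalised counts in the young livers, 1335, 1417, 1928 and 1292 in the middle-aged livers and 2212, 1634, 1157 and 1222 in the aged livers. Neither older group overlapped the young livers, a pattern seen in 7.53% of tested genes for aged and 16% for middle-aged livers. Cyp4a12a fell by 1.05 on the log2 scale between young and aged livers and by 1.11 between young and middle-aged ones (DESeq2 adjusted p = 3.45e-05 and 5.58e-06). Its copy Cyp4a12b, 98.5% identical in coding sequence and not separable from it where reads are shared, fell by 1.35 and 1.32 (DESeq2 adjusted p = 7.53e-05 and 0.00011). Cyp4b1, Cyp4f17 and Cyp4f16 had log2 fold changes of 0.09, 0.21 and -0.46 between aged and young livers and did not pass. The other 7 had a mean under 10 normalised counts, and Cyp4a30b, Cyp4f37 and Cyp4f40 had no count in any liver.

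Genes that act with the members in omega-oxidation showed few called differences. Of 9 listed partners (the P450 reductase and cytochrome b5 system, and the alcohol and aldehyde dehydrogenases), 8 were tested and 0 were called by DESeq2 between aged and young livers. The aldehyde dehydrogenase gene Aldh3a2, at 0.87, was the 1 at an unadjusted p under 0.05, and the median log2 fold change was 0.07. Between middle-aged and young livers 1 of 8, Por, was called, and 3 had an unadjusted p under 0.05. Over all tested genes 3.58% were called between aged and young livers and 6.41% between middle-aged and young ones. Por, the reductase that supplies electrons to every microsomal P450, was at 1404, 1263, 1162 and 1434 normalised counts in the young livers, 2401, 2708, 1442 and 1844 in the middle-aged livers and 1249, 1189, 908.0 and 1058 in the aged livers. It rose by 0.67 on the log2 scale from young to middle-aged livers (DESeq2 adjusted p = 0.00579) and fell by 0.93 from middle-aged to aged ones (DESeq2 adjusted p = 9.46e-05), though edgeR called neither. Its lowest livers, aged replicates 3 and 4, were those with the highest Cyp4a10 and Cyp4a14.

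In the peroxisomal route for dicarboxylic and long-chain acids, 2 of 15 tested genes passed with higher values in aged than in young livers and 0 with lower ones (median log2 fold change 0.20). Of all tested genes 1.87% were called higher in aged livers. Acot4, a peroxisomal thioesterase of dicarboxylyl-CoAs, rose by 1.39 and its neighbour Acot3 by 3.71 on the log2 scale (DESeq2 adjusted p = 1.02e-06 and 0.00312). Between middle-aged and young livers 3 of 15 were called, all higher: Acot3 by 2.89, Acot4 by 1.21 and Decr2 by 0.30. The share of all tested genes called there in either direction was 6.41%. Acot3 was low throughout, at 1.06 to 4.74 normalised counts in young and 7.03 to 64.7 in aged livers, and like Cyp4a10 it was highest in aged replicates 3 and 4. edgeR called Acot4 alone in both comparisons, and without aged replicate 3 Acot3 was not called between aged and young livers.

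Ppara itself was at 416.1, 287.8, 463.3 and 610.2 normalised counts in the young livers, 776.4, 702.1, 686.1 and 844.9 in the middle-aged livers and 367.3, 816.8, 825.8 and 577.5 in the aged livers. Of 10 listed receptors and cofactors, 2 were called higher in middle-aged than in young livers, Ppara by 0.76 (DESeq2 adjusted p = 0.0393) and the coactivator gene Ppargc1b by 1.18 (DESeq2 adjusted p = 0.00278), and 0 between aged and young, where 3 had an unadjusted DESeq2 p under 0.05. Ppargc1b fell by 1.16 from middle-aged to aged livers (DESeq2 adjusted p = 0.00763). edgeR called 1, 0 and 0 of the 10 in these comparisons. Among all tested genes DESeq2 called 6.41% between middle-aged and young livers, 3.58% between aged and young and 1.14% between aged and middle-aged.

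Of 23 tested PPARα targets outside the Cyp4 family, 5 were called higher in aged than in young livers and 0 lower. Of all tested genes 1.87% were called higher in aged livers. The median log2 fold change of the 23 targets was 0.48 against 0.00 over all tested genes. Fgf21, a hormone of fasting, was at 1.06, 0, 1.18 and 0 normalised counts in young livers and 9.03, 17.3, 33.2 and 15.2 in aged ones. Every aged liver lay above the young livers (DESeq2 adjusted p = 0.00213), and 7.53% of tested genes had no overlap between these ages. Vnn1 rose by 2.69, the fatty acid transporter gene Cd36 by 1.74 and Retsat by 0.65 on the log2 scale (DESeq2 adjusted p = 0.00686, 0.016 and 0.0126). Cd36 was at 260.9, 432.5, 1502 and 1132 in aged replicates 1 to 4 against 212.7 to 307.8 in young livers, with the same livers high as for Cyp4a10. The lowest of the 23 log2 fold changes was that of Angptl4, -0.39, which was not called. Angptl4 was at 498.8, 575.1, 322.5 and 295.0 in aged replicates 1 to 4 against 387.2 to 830.8 in young livers. The count of 5 was 1 without young replicate 2, 1 without aged replicate 3, 2 without young replicate 3 and 12 without aged replicate 1, and edgeR called 1. It was 0 within set A and, with 1 gene lower, 5 within set B. DESeq2 called 0 of 21 between middle-aged and young livers and 0 of 21 between aged and middle-aged livers, with 9 and 4 at an unadjusted p under 0.05, and edgeR called 0 in both.

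**Figure D5:**
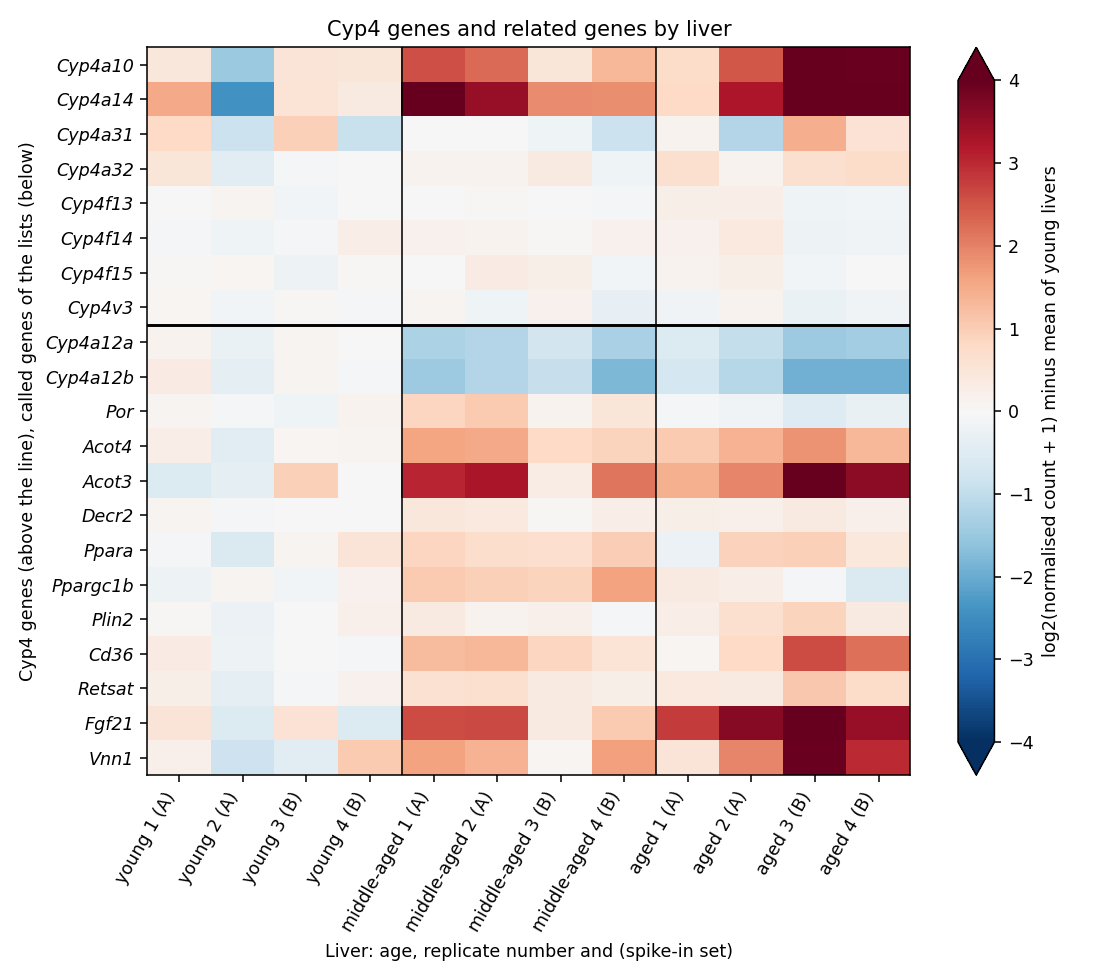
Log2(normalised count + 1) in each liver minus the mean of the 4 young livers (colour, capped at 4 in either direction) for the 8 Cyp4 genes (above the line) and for every reported gene of the Cyp4, omega-oxidation, peroxisomal and PPARα lists called between any ages (below). Cyp4a10, Cyp4a14, Acot3, Vnn1 and Cd36 are strongest in aged replicates 3 and 4, and Cyp4a12a and Cyp4a12b lie below the young mean in all 8 older livers.

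Several other measures moved with the age groups, and their part in the Cyp4a differences was not tested. Between aged and middle-aged livers 8 of 13 tested clock genes passed, 3 upwards and 5 downwards, led by Dbp (-2.78), Per3 (-2.31), Arntl (1.56) and Nfil3 (1.53), while 1 of 14 tested was called between aged and young livers (Cry1, 0.91). Between middle-aged and young livers 6 of 14 passed, 5 upwards and 1 downwards, led by Dbp (1.95), Per3 (1.51), Nfil3 (-1.01) and Tef (0.91). Of 3 erythroid markers, Hbb-bs and Alas2 were lower in aged than in young livers, by a log2 fold change of -1.67 and -0.60. The summed erythroid level was 16870 to 60072 normalised counts in the young livers, 9746 to 35995 in the middle-aged livers and 7398 to 15834 in the aged livers, highest in young replicate 2, which also had the lowest Cyp4a10 and Cyp4a14. Of 5 bile duct markers 1, Sox9, was higher in aged than in young livers (0.86). No Kupffer, endothelial, stellate or lymphoid marker was called between any ages by DESeq2 or edgeR, with 0 to 2 per list and comparison at an unadjusted DESeq2 p under 0.05. Neutrophil markers summed to at most 250 normalised counts, adipocyte markers to at most 174 and kidney markers to at most 5.92. All genes of these lists had a count in at least 1 liver.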

How the data were processed

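RNA-seq of 12 mouse livers was analysed from a single table of counts per gene, which the authors deposited as whole-number read counts without normalisation. The submitters' processing notes name STAR 2.5.2b, SAMtools 1.9, featureCounts, edgeR 3.28.1, DESeq2 1.26.0 and R 3.6.3 with the builds mm10 and GRCm38; the strand setting and the treatment of reads with several alignments are not given in the sources used here. The library kit that the study's methods describe, for young and old livers, was directional, and its use for all 12 livers is uncertain. Age and replicate number came from the sample titles, and the labels state that each sample is a single animal. The series' own design text gives 3 replicates per age where the table holds 4. The 8 genes, the lists and the tests were chosen with earlier results of these data known. No p-value of an age difference was therefore adjusted over the genes or lists alone. Only correlation p-values were, over the 28 pairs of the 8 genes.

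Symbols, positions and exon lengths were taken from GENCODE M21 (GRCm38), which holds 53360 of the 53465 identifiers. Coding sequences were the longest open reading frame of protein-coding transcripts; 50-base windows were matched against all transcripts. Spike-in rows were left out of gene tests and not used for scaling; relative abundances of the 31 spike-ins with at least 50 counts in every library correlated at 0.997 or more within sets A and B and at 0.925 or less between them.

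The 28449 genes with a count entered DESeq2 1.42.0 (R 4.3.3), the tool the study names: all 12 livers in a single fit on age, median-of-ratios size factors, default independent filtering (level 0.1) and Cook's distance rule, Wald tests for pairs of ages, the likelihood ratio test for 3 ages, an age by set term for differences between sets, and Benjamini-Hochberg adjustment over all tested genes with a threshold of 0.05. Intervals are the log2 fold change ± 1.96 SE. Correlations used log2(normalised count + 1) with two-sided permutation tests. A count of 0 allows up to 3 counts, a CPM of 0.285 to 0.369 for counting error only. The fit was tested on simulated data. Alternatives were edgeR 4.0.16 quasi-likelihood, limma 3.58.1 voom with sample weights, TMM factors, total counts, at least 10 counts in at least 4 livers, no independent filtering, only the ages compared, the replicate number as a block, the set as covariate, fits within sets and fits leaving out each liver. A fit without young replicate 3 and middle-aged replicate 1 was added after the data were seen. All 8 genes were named in every comparison; from each list up to 4 called genes with the largest change were named, along with other Cyp4 genes averaging at least 10 normalised counts and the 5 genes most correlated with Cyp4a10, Cyp4f14 and Cyp4v3. P-values of age differences weigh each difference against the estimated spread between animals of this design only. 1 gene of the PPARα target list is not reported here and was left out of its counts.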

Additional observations from a re-analysis of the deposited data

Results flagged for a closer look

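Among 24 groups of 4 livers (8 genes at 3 ages), 2 held a liver whose gap to its nearest neighbour exceeded Dixon's 95% critical value. By chance about 1 in 20 groups does so, or 1.2 here. Cyp4a10 was at 56.04 normalised counts in young replicate 2 and at 217.6 to 227.5 in the other young livers (gap of 0.942 of the range). That liver also had the lowest Cyp4a14 (1.27), Cyp4a32 (72.6) and Ppara (287.8). It had the highest shares of mitochondrial counts (19.2%) and spike-in counts (10.6%) and the largest erythroid sum (60072). Without it the log2 fold change of aged over young was 2.98 for Cyp4a10 and 5.78 for Cyp4a14 (DESeq2 adjusted p = 0.0117 and 0.00168), so both calls stood. Cyp4f15 was at 784.4 normalised counts in young replicate 3 and at 929.9 to 947.6 in the other young livers (gap of 0.892 of the range). Young replicate 3 was the liver with the most genes detected (22284).

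The log2 fold change of Cyp4f14 between aged and young livers differed between the spike-in sets, by -0.69 in set B relative to set A (DESeq2 interaction test, adjusted p = 0.048). Aged replicates 1 and 2 were at 3197 and 3664 normalised counts against 2690 and 2514 in young replicates 1 and 2, and aged replicates 3 and 4 at 2447 and 2549 against 2722 and 3400 in young replicates 3 and 4. The 2 aged livers with the lowest Cyp4f14 were those with the highest Cyp4a10 and Cyp4a14.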

How the results depend on the processing

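Between aged and young livers the count of 2 members called was 1 under limma-voom (Cyp4a10) and 0 within set A, and 2 or 3 with a liver left out; no other alternative changed it. Between middle-aged and young livers it went from 0 to 2 with only those ages fitted, and between aged and middle-aged livers from 0 to 2 within set B; it was 0 to 0 with a liver left out in both. For the 3 ages together the count of 2 was 1 under limma-voom and with the set as covariate, 0 within set A, 0 with the replicate block, and 0 to 3 with a liver left out. The count of 1 member (Cyp4f14) called as unlike between the sets was 0 under edgeR, with TMM factors, with the low-count filter and without independent filtering, and 0 to 1 with a liver left out, where the member called was Cyp4f14 without young replicate 3 or aged replicate 1 and Cyp4a14 without young replicate 2 or aged replicate 2. Causes were not tested. The correlation of Cyp4a10 with Cyp4a14 ranged from 0.969 to 0.985 with a liver left out. The livers' replicate numbers belong to different animals and did not pair them: same-numbered livers' deviations from age means correlated at -0.10, -0.0018 and 0.0065 on average in the 3 pairs of ages, and 0, 3 and 1 of 8 livers correlated best with their own number. With the replicate block 2, 0 and 0 members were called between pairs of ages, and the correlation of Cyp4a10 with Cyp4a14 was 0.973 on deviations from age and replicate-number means. The fit without young replicate 3 and middle-aged replicate 1, added after the data were seen, called 2, 0 and 0.

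Of 624 log2 fold changes of single members tried, 33 changed sign, 17 lost and 7 gained a call. All sign changes were in values that had not passed. Within set A they were -0.57 for Cyp4a10, -1.75 for Cyp4a14, -0.41 for Cyp4a31, 0.13 for Cyp4f14, 0.0082 for Cyp4f15 and 0.028 for Cyp4v3 between aged and middle-aged livers, and -0.65 for Cyp4a31 and 0.015 for Cyp4v3 between aged and young. Within set B they were -0.092 for Cyp4f13, -0.30 for Cyp4f14 and -0.0063 for Cyp4f15 between aged and young livers, -0.019 for Cyp4f14 between middle-aged and young, and -0.090 for Cyp4f13 between aged and middle-aged. Under limma-voom Cyp4f13 was at 0.0052 between middle-aged and young livers and Cyp4f14 at -0.033 between aged and young. Cyp4f13 was at 0.0073 with TMM factors and 0.098 with total counts, and Cyp4v3 at 0.069 with total counts, between middle-aged and young livers, and Cyp4v3 at 0.011 with total counts between aged and young. Total counts moved the median of all genes by 0.12 there. Without young replicate 3 and middle-aged replicate 1, Cyp4v3 was at 0.0014 between aged and middle-aged livers. With a liver left out the ranges that crossed 0 were, between aged and young livers, -0.26 to 0.66 for Cyp4a31, -0.0096 to 0.14 for Cyp4f13 and -0.052 to 0.17 for Cyp4f14. Between middle-aged and young livers they were -0.046 to 0.27 for Cyp4a32, -0.051 to 0.025 for Cyp4f13 and -0.12 to 0.047 for Cyp4v3. Between aged and middle-aged livers they were -0.18 to 0.018 for Cyp4f14, -0.13 to 0.024 for Cyp4f15 and -0.15 to 0.020 for Cyp4v3.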

Other observations

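The age by set test that called Cyp4f14 also called genes related to the 4A members. The fatty acid transporter gene Cd36, a PPARα target, rose more between young and aged livers in set B than in set A, by 2.06 on the log2 scale (SE 0.36, DESeq2 adjusted p = 1.01e-05), and it was the only 1 of 21 tested PPARα targets called. Of all 10799 tested genes 0.732% were called. The 21 targets had a median of 0.06 and ranged from -1.36 for Angptl4 to 2.70 for Cidec. The point estimate of Cd36 had the sign of those of Cyp4a14 (5.32) and Cyp4a10 (1.65), which did not pass with all 12 livers. That of Cyp4a14 passed without young replicate 2 or aged replicate 2 and was between 1.51 and 7.04 with a liver left out. Of 14 tested clock genes 2 were called, Dbp (-1.78) and Nr1d1 (-1.42), both with a lower value of aged against young in set B than in set A (DESeq2 adjusted p = 0.0212 and 2.99e-07). Nr1d1 was at 447.4 and 431.8 normalised counts in aged replicates 3 and 4 and at 845.0 and 833.2 in aged replicates 1 and 2. Whether the time of day or feeding state of these livers differed was not tested.

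Cyp4a12a and Cyp4a12b were also lower in aged than in young livers within set B, where both were called, and within set A, where Cyp4a12b alone was called. Their difference between sets was -0.79 and -1.01 and did not pass (DESeq2 adjusted p = 0.267 and 0.338). Aged replicates 3 and 4, with the highest Cyp4a10 and Cyp4a14, had the lowest Cyp4a12a (1157 and 1222 normalised counts) and Cyp4a12b (312.9 and 312.0) of the 12 livers.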
